A study of Monodelphis domestica and Mus musculus with 2 samples.

Results

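The genes described here encode 9 glycolytic enzymes: hexokinase 1 (Hk1), aldolases A and C (Aldoa, Aldoc), phosphoglycerate kinase 1 (Pgk1), pyruvate kinase M (Pkm), enolases 1 and 2 (Eno1, Eno2) and the A and B subunits of lactate dehydrogenase (Ldha, Ldhb). They were chosen by symbol, without regard to case. All 9 were found among 43587 mouse symbols. In turn 4 of them, Aldoc, Pkm, Ldha and Ldhb, were found in the opossum, where 11598 features carried a gene symbol and the others an identifier alone, so Hk1, Aldoa, Pgk1, Eno1 and Eno2 are not analysed here in the opossum. Their levels were read in primary visual cortex (V1) by cell subclass and by depth.

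The study measured RNA by Stereo-seq, which captures polyadenylated RNA from a section on a chip of barcoded spots and sums unique molecular identifiers (UMIs) over segmented cells. Each group was 1 animal and 1 section of 10 µm: a male gray short-tailed opossum (Monodelphis domestica) of about 6 months, and a male wild-type C57BL/6J mouse of about postnatal day 40. No treatment or engineered allele was given for either animal. RNA integrity was lower in the opossum tissue (a number of 7.1) than in the mouse tissue (above 9). The opossum was kept without cagemates and the mouse could share a cage, so species cannot be told apart from age, housing or RNA quality. With 1 animal per species no test was possible. V1 regions (3 for the opossum and 4 for the mouse) come from 1 cut of a tissue block of 1 animal, called the section here. They are not replicates. The block held several coronal slices, and the paper counts the regions as from more than 1 coronal section in each species. The SD or range over regions thus describes 1 animal and can include differences between slices.

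Glycolysis converts glucose to pyruvate through a series of cytosolic enzymes, and lactate dehydrogenase interconverts pyruvate and lactate. Several steps have isozymes with known cell biases in brain: aldolase C is a widely used astrocyte and Purkinje cell gene, enolase 2 is the neuron-specific enolase, and enolase 1 is the broadly expressed form. The A subunit of lactate dehydrogenase predominates in skeletal muscle and the B subunit in heart. Parvalbumin interneurons, which fire at high rates, are known for a high demand on mitochondrial energy supply.

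In the mouse build GRCm39, Hk1 lies on chromosome 10 (62104621 to 62215687, minus strand), Aldoa on chromosome 7 (126393822 to 126399923, minus), Aldoc on chromosome 11 (78213619 to 78218889, plus) and Pgk1 on chromosome X (105230706 to 105247305, plus). Pkm lies on chromosome 9 (59563364 to 59586663, plus), Eno1 on chromosome 4 (150321073 to 150337027, plus) and Eno2 on chromosome 6 (124736247 to 124746636, minus). Ldha lies on chromosome 7 (46490899 to 46505061, plus) and Ldhb on chromosome 6 (142435672 to 142454586, minus). These spans cover exons and introns of protein-coding genes in the GENCODE annotation. A second mouse feature with the symbol Aldoa, which overlaps the main one on the same strand, held 1 of its 9712 UMIs and was added to it. Eno1 has a near-identical retrogene copy, Eno1b, which held 3 UMIs against 622 for Eno1, so reads may have been split or discarded between them and Eno1 is uncertain.

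The 150 bases upstream of the canonical transcript start are shown for the members whose window held no annotated exon, since they include genes with opposite depth differences in the mouse: Pgk1 and Eno2 were higher in deep cells in every V1 region and Ldhb was slightly lower, by a difference whose sign depended on the processing. Capitals mark ACGTG on either strand, the core of the element bound by hypoxia-inducible factors and also part of other E-box sites.
Pgk1 (chrX:105230556-105230705, plus strand): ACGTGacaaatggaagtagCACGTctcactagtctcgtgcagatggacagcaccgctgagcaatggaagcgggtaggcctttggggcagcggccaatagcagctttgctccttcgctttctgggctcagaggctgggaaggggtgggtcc
Eno2 (chr6:124746637-124746786, minus strand): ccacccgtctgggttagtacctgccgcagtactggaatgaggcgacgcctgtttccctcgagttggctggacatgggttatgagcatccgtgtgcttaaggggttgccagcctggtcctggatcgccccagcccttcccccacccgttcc
Ldhb (chr6:142453909-142454058, minus strand): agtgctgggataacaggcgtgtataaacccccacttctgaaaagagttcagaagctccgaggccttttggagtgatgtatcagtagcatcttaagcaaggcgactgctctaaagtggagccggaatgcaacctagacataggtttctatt
Pgk1 held 2 matches, and Eno2 and Ldhb held none. Of the 9 members 3 held at least 1 match (Aldoa, Pgk1 and Ldha, which had 3 with 1 overlapping pair), beside 11.1% of the 21757 windows of protein-coding genes. Guanine and cytosine made up 46.7% of the Ldhb window and 75.3% of the Ldha window. A match is a description of these letters and not evidence of binding.

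The opossum section held 80369 cells and 84570416 UMIs, of which 4806 cells and 6933475 UMIs lay in V1. For the mouse the totals were 120239 cells and 147861707 UMIs, of which 9127 cells and 12522687 UMIs lay in V1. The median V1 cell had 1326 UMIs in the opossum, with 1305 in the mouse, and no cell barcode was shared between sections. The labels were checked against lists of marker genes. Slc1a2, the main astrocytic glutamate transporter, was 22.6 UMIs per 10000 in opossum astrocytes and 3.92 in glutamatergic cells (5.75-fold), but 20.6 and 11.4 in the mouse (1.81-fold). Slc17a7, the vesicular glutamate transporter of cortical excitatory neurons, was 9.56 in mouse astrocytes and 10.4 in mouse glutamatergic cells. Over the 5 astrocyte markers, all found in both species, the summed level was 41.6 in opossum astrocytes and 8.57 in opossum glutamatergic cells, with 29.3 and 14.2 for the mouse. Neuronal and astrocytic transcripts were thus counted in cells of the other label, and the part of this in the differences between subclasses was not tested. Opossum cells labelled Micro (32 cells) and Endo (65 cells) rested on few marker UMIs. The 4 microglial markers found summed to 7 UMIs in Micro (1.95 per 10000, against 0.157 in glutamatergic cells), with 2 of them at 0. Endothelial markers stood at 2.23 in Micro and 2.50 in Endo, against 0.694 in glutamatergic cells. Glutamatergic markers stood at 73.6 in Micro and 60.6 in Endo, no lower than the 55.5 of glutamatergic cells. In the subclass label Pvalb, Gad1, which encodes a GABA-synthesizing enzyme, was 11.5 (opossum) and 4.96 (mouse), against 1.96 and 1.79 in glutamatergic cells. Over the GABAergic markers found, the summed level in Pvalb was 27.7 (opossum, 4 of 5 found) and 16.8 (mouse, 5 of 5), against 8.26 and 7.97. Glutamatergic markers summed to 36.4 and 34.6 in Pvalb, against 55.5 and 44.2 in glutamatergic cells. No marker list covered L5PT neurons.

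The level of a gene is given as UMIs per 10000 UMIs of the same cells, with exact 95% Poisson intervals that cover counting error only. Over all V1 cells of the opossum, Aldoc was 13.3 (13.0 to 13.6), Pkm 8.51 (8.29 to 8.73), Ldhb 4.41 (4.25 to 4.57) and Ldha 0.813 (0.748 to 0.883). Aldoc ranged from 12.1 to 15.3 over the V1 regions, whereas Pkm stayed between 8.45 and 8.55. In the mouse, Aldoa was 7.76, Eno2 4.68, Pkm 4.55, Ldhb 3.62, Pgk1 3.52, Ldha 2.37, Aldoc 2.07, Hk1 1.97 and Eno1 0.497. Opossum and mouse reads were counted on differently built gene models, and capture can differ between transcripts, so levels were not compared between species or between genes. In both species Aldoc was lower in V1 than in the other cells of the section, at 0.837-fold for the opossum and 0.809-fold for the mouse. Ldhb was 0.770-fold as high in opossum V1 as elsewhere in its section (4.41 against 5.72), and 1.18-fold as high in mouse V1 (3.62 against 3.08). The cells elsewhere were all others of the section, without the filter applied in V1. Opossum slices were trimmed beside and below V1 before embedding and mouse slices were not. The cells elsewhere thus cover different tissue in each species, and the directions cannot be compared.

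Among subclasses with at least 25 cells (14 for the opossum and 17 for the mouse), the highest level was at most 3.02-fold the lowest for every member, leaving out Eno1, which had no UMI in mouse Vip and Lamp5 cells. Aldoc was highest in astrocytes in both species and Ldhb was highest in Pvalb cells in both. The upper order of Aldoc in the opossum was astrocytes at 16.4 (15.4 to 17.4), oligodendrocytes at 15.4 and L5NP neurons at 15.2, whose intervals overlapped, and Vip cells were lowest at 8.92. Mouse astrocytes were at 2.99 (2.56 to 3.49) for Aldoc, next to endothelial cells at 2.88, and L6b neurons were lowest at 1.09. Of the 8 orders in which Aldoc, Pkm, Ldha and Ldhb could be ranked in a species, neighbouring subclasses had separate intervals at 1 place, in opossum Pkm. There the lowest subclass, IT_B, stood at 5.28 (4.35 to 6.36).

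Opossum Ldhb in Pvalb cells stood at 8.32 (7.58 to 9.12), above the interval of 10 of the 13 other subclasses, followed by the cells labelled Endo at 6.47 (4.70 to 8.69) and Micro at 5.85 (3.62 to 8.95), labels with the marker values given above, and the lowest was IT_B at 3.07. Mouse Ldhb ran from 4.67 in Pvalb cells through 4.49 in L5PT neurons to 3.11 in L6IT neurons. Pkm, which makes pyruvate, was highest in opossum L5PT neurons (10.6) and in mouse Pvalb cells (5.77). Ldha was lowest in mouse Pvalb cells, at 1.62 (1.18 to 2.17), and highest there in L6CT neurons at 2.77 (2.54 to 3.01). Hk1, Pgk1 and Eno2 were highest in mouse L5NP neurons, at 3.24 (2.12 to 4.75), 4.74 (3.35 to 6.50) and 5.98 (4.41 to 7.93), a subclass of 60 cells. Aldoa was highest in mouse microglia at 8.85 (7.73 to 10.1), and none of these stood apart from its neighbour in the order.

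**Figure D1:**
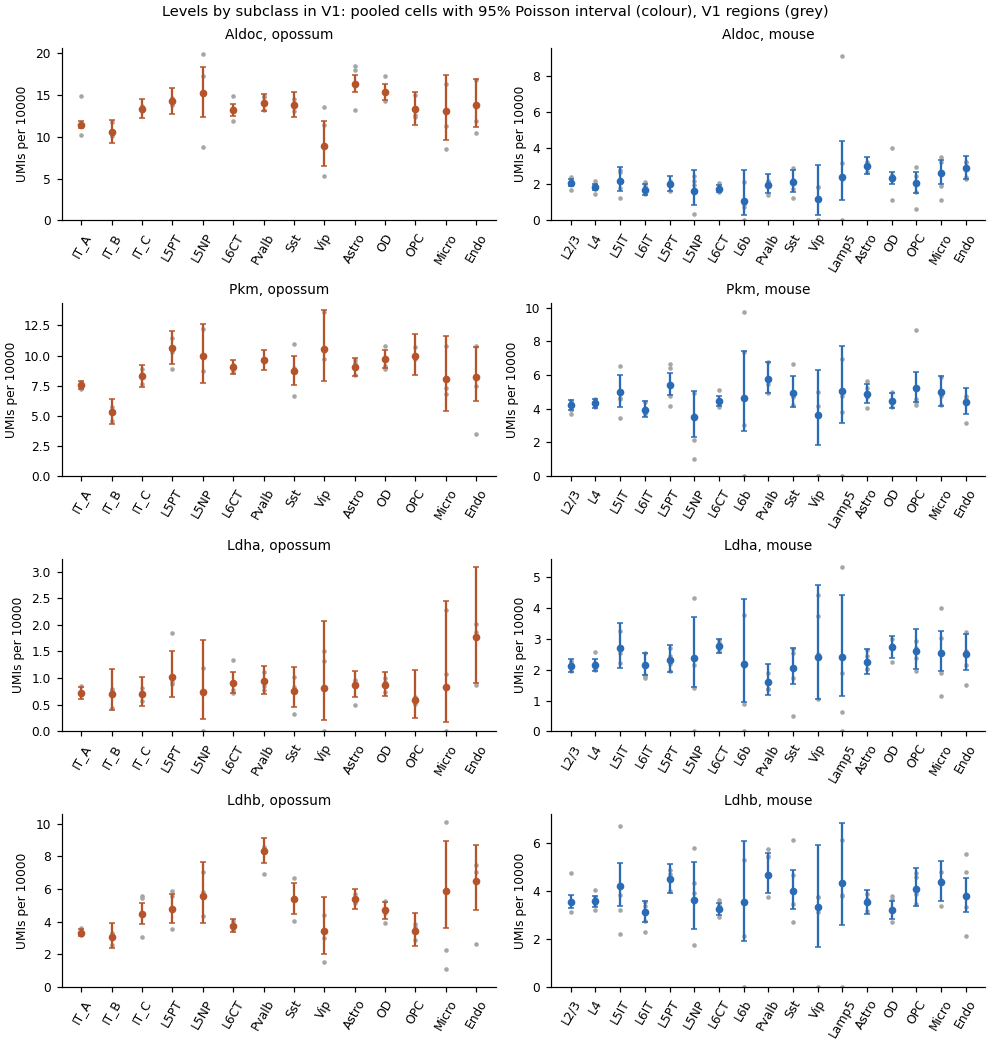
Levels of Aldoc, Pkm, Ldha and Ldhb (UMIs per 10000, from 0) in each V1 subclass of the opossum (left) and mouse (right). Coloured points are pooled cells with exact 95% Poisson intervals and grey points are single V1 regions. Opossum Pvalb cells stand at 8.32 for Ldhb, and astrocytes are highest for Aldoc in both species.

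For comparisons between cells, a gene with at least 500 UMIs was counted as higher or lower where the pooled log2 ratio was at least 0.32 in size (the limit) and every V1 region went the same way. All 4 opossum and 9 mouse members had 500 UMIs or more. Astrocytes, oligodendrocytes and Pvalb cells were each set against the same glutamatergic cells, so these comparisons share their reference. Shares of all tested genes that met the criterion are given beside the members.

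Astrocytes had more Aldoc than glutamatergic neurons in both species, and in the opossum also more Ldhb. Opossum Aldoc was 13.3, 18.1 and 18.5 in astrocytes of V1 regions 1, 2 and 3, and 11.1, 12.2 and 14.6 in their glutamatergic cells. Astrocytes were higher in each region, although the ranges of the regions overlapped. The pooled levels were 16.4 and 12.2, a 1.34-fold difference (log2 0.42, SD over regions 0.16). Opossum Ldhb was 5.48, 5.12 and 5.68 in astrocytes and 3.61, 3.54 and 3.92 in glutamatergic cells, 1.47-fold higher (log2 0.56, SD 0.04) with no overlap. Thus 2 of 4 opossum members were higher and none was lower, beside 9.81% higher and 20.5% lower among 3342 genes. The Aldoc difference no longer met the criterion without V1 region 2. Pkm was higher in every region with no overlap but by only 1.12-fold. Of the 495 opossum astrocytes, 133 carried the class label glutamatergic, and with both labels matching the same 2 members met the criterion.

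Mouse Aldoc was 3.23, 2.89, 2.91 and 2.66 in astrocytes of the 4 regions and 1.89, 1.87, 2.15 and 1.64 in glutamatergic cells, and the ranges did not overlap. The pooled difference was 1.59-fold (2.99 against 1.88; log2 0.67, SD 0.15). No other mouse member met the criterion, so 1 of 9 was higher, beside 4.99% higher and 8.26% lower among 5508 genes. Eno2, the neuronal enolase, was below glutamatergic cells in all 4 regions (3.99 against 4.66, 0.856-fold), which is within the limit. Other non-neuronal subclasses went both ways for Eno2. Microglia stood above glutamatergic cells at 5.95 (5.04 to 6.98), as did oligodendrocytes at 5.16. Oligodendrocyte precursors stood below at 4.54, as did endothelial cells at 3.92. Mouse Ldhb differed by 1.00-fold (3.52 against 3.51).

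Of the 565 opossum cells with the subclass label of oligodendrocytes, 230 had a class label that matched. The oligodendrocyte markers found (4 of 5) summed to 99.3 in the 565 cells, against 31.4 in glutamatergic cells. Glutamatergic markers stood at 51.2 against 55.5. Oligodendrocytes of the opossum had slightly more Aldoc (15.4 against 12.2, 1.26-fold) and Ldhb (4.69 against 3.64, 1.29-fold) than glutamatergic cells. These were 2 of 4 members, beside 14.0% of genes higher and 21.4% lower. Both were close to the limit: neither met it without V1 region 1, nor when each cell was weighted equally. Aldoc also did not without region 2. With matching class labels Ldhb passed the limit by more (log2 0.59, against 0.36 with all labels) but did not go 1 way in every region. The same held for Ldhb with first-round labels (log2 0.55), which left 135 oligodendrocytes. With those labels Ldha met the criterion as lower (log2 -0.52, against 0.16 with all labels). In mouse oligodendrocytes 0 of 9 members met the criterion, beside 6.34% higher and 10.4% lower. Mouse Aldoc there was 2.53, 4.02, 2.25 and 1.14 in the 4 regions, so that it lay above glutamatergic cells in 3 regions and below them in region 4, and without region 4 it met the criterion.

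Pvalb interneurons had more Ldhb than glutamatergic neurons in both species. In the opossum, Pvalb cells were at 8.51, 8.57 and 6.94 in the 3 regions and glutamatergic cells at 3.61, 3.54 and 3.92, a 2.28-fold difference (log2 1.19, SD 0.25) with no overlap. Ldhb was the 1 member of 4 that met the criterion, beside 11.1% higher and 17.4% lower, and 99.2% of the tested genes had a smaller log2 ratio. Opossum Sst cells also stood above glutamatergic cells for Ldhb, at 5.36 (4.47 to 6.39) against 3.64. Opossum Pkm was 1.19-fold higher with a nearly equal ratio in each region (log2 0.25, SD 0.01), Aldoc 1.15-fold and Ldha 1.21-fold, all within the limit. The Ldha level in Pvalb cells rested on 52 UMIs, and the sign of its ratio depended on the labels. Its log2 ratio was 0.28 with all labels, -0.42 with first-round labels and -0.37 with matching class labels. Of the 354 opossum cells with the subclass label Pvalb, 142 carried the class label glutamatergic. With cells kept only where both labels matched, Ldhb still met the criterion.

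In the mouse, Pvalb cells had more Ldhb and Pkm and less Ldha. Ldhb was 3.72, 5.72, 5.44 and 5.39 in Pvalb cells and 3.19, 3.73, 4.01 and 3.42 in glutamatergic cells, higher in each region although the ranges overlapped (1.33-fold; log2 0.41, SD 0.20). Pkm was 5.70, 4.90, 5.44 and 6.78 against 4.32, 4.05, 4.70 and 4.44, with no overlap (1.32-fold; log2 0.40, SD 0.18). Ldha, in contrast, was 1.90, 1.36, 1.36 and 1.39 against 2.23, 2.48, 2.29 and 2.44, lower in every region with no overlap (0.693-fold; log2 -0.53, SD 0.29). These 3 of 9 members compare with 4.16% of genes higher and 10.2% lower. The Ldha level rested on 174 cells and 44 UMIs over the 4 regions, so single regions held few. With labels from the first classification round, which kept 50 Pvalb cells, only lower Ldha met the criterion, and with each cell weighted equally Pkm and Ldhb did not.

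L5PT neurons, the thick-tufted layer 5 cells that project to subcortical targets, were compared with IT neurons, which project within the telencephalon. In the opossum Pkm was 10.3, 11.4 and 8.85 in L5PT cells of the 3 regions and 7.42, 7.60 and 7.51 in IT cells (1.41-fold; log2 0.50, SD 0.18). The ranges of the regions did not overlap. Ldha was 1.43-fold higher (1.02 against 0.712) and Ldhb 1.37-fold (4.75 against 3.48), the latter with overlapping ranges. The L5PT level of Ldha rested on 24 UMIs, with an interval of 0.652 to 1.51 that holds the IT level. These 3 of 4 members compare with 10.0% of all genes higher and 17.2% lower. The group held 115 cells, and with first-round labels, which left 29 of them, only Ldhb met the criterion, whereas without V1 region 1 Ldhb did not. Among mouse members, 1 of 9 met it, Ldhb at 4.49 against 3.52 (1.27-fold), beside 6.10% higher and 10.4% lower. Without V1 region 4 none did, while 4 members did without region 1 and 4 without region 2. Without region 1 all 4 were higher, whereas without region 2 Eno2 and Ldhb were higher and Hk1 and Eno1 lower. Leaving out a region also raised the count over all genes, to 1345 and 1368 of 5508, against 908 with all regions. With each cell weighted equally Ldhb did not meet the criterion and Pgk1 did. Mouse Pgk1 (1.31-fold) and Pkm (1.27-fold) passed the limit in pooled cells but were higher in 3 of 4 regions. Eno2 was higher in all 4 but just under the limit (5.41 against 4.34). The median L5PT cell held 1894 UMIs in the opossum, with 1901.5 in the mouse, against 1380.5 and 1250 in IT cells, and the part of this depth in the result was not tested.

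The members were also read against depth. Relative depth was cut into 3 equal bands, and the deep band was set against the superficial band. In the opossum all 4 members were higher in the deep band in every region, beside 28.6% of all tested genes without a limit on the fold. Ldhb was 4.90, 4.65 and 4.31 in the deep band and 3.56, 3.31 and 3.38 in the superficial band (1.37-fold; log2 0.45, SD 0.07), and Aldoc was 13.8, 15.1 and 16.3 against 10.1, 11.1 and 14.5 (1.30-fold; log2 0.38, SD 0.16). Pkm (1.16-fold) and Ldha (1.19-fold) were within the limit. So 2 of 4 members met the criterion, beside 14.8% higher and 14.4% lower.

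In the mouse 7 of 9 members were higher in the deep band in all 4 regions, and Aldoc and Ldhb were lower in all 4. Without a limit on the fold, 18.2% of all tested genes were higher and 16.8% lower in all 4 regions. Ldha was 2.79, 2.79, 2.65 and 3.00 in the deep band and 2.08, 2.26, 1.71 and 1.91 in the superficial band, with no overlap (1.41-fold; log2 0.50, SD 0.17). Eno1 was 0.521, 0.556, 0.739 and 0.761 against 0.391, 0.403, 0.387 and 0.403 (1.59-fold; log2 0.67, SD 0.28). These 2 of 9 compare with 8.28% of genes higher and 9.84% lower. Just under the limit stood Eno2 (1.24-fold), Hk1 (1.23-fold), Pgk1 (1.23-fold) and Aldoa (1.21-fold), and Pkm was 1.13-fold higher. Over the members the median log2 ratio was 0.30, beside 0.02 over all tested genes. Aldoc was 1.99, 1.96, 1.94 and 1.74 against 2.09, 2.19, 2.20 and 1.97, a small difference of 0.910-fold. Ldhb was 3.08, 3.55, 3.72 and 3.23 against 3.13, 3.73, 4.01 and 3.47, or 0.955-fold, but its sign changed (log2 0.09) with depth split at its middle or after thinning to 300 UMIs.

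**Figure D2:**
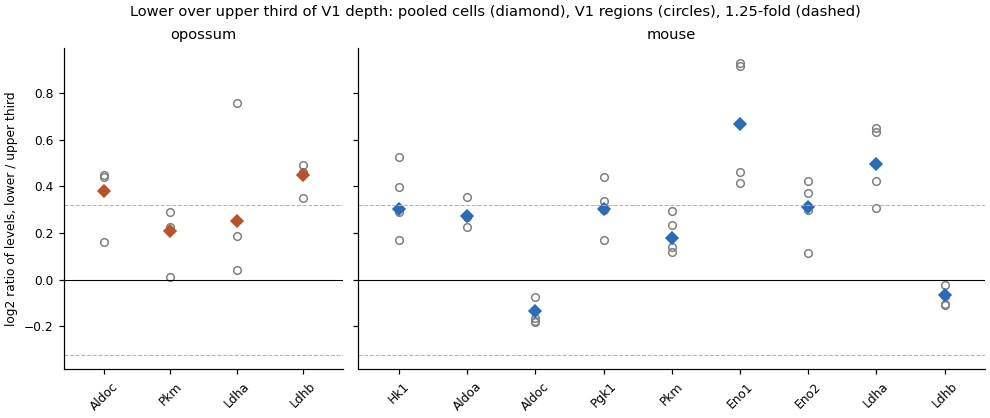
Log2 ratio of the level in the deep band of V1 over the superficial band, for each member in the opossum (left) and mouse (right). Diamonds are pooled cells, circles single V1 regions, and dashed lines the limit. Aldoc (0.38) and Ldhb (0.45) lie above 0 for the opossum and just below 0 for the mouse (-0.14 and -0.07), where the sign of Ldhb changed with depth split at its middle or after thinning.

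The depth bands also differed in cells and in UMIs per cell. Oligodendrocytes made up 20.6% of deep and 3.81% of superficial opossum cells, with 14.0% and 1.30% for the mouse, and the summed level of the oligodendrocyte markers found was 55.4 against 21.6 in the opossum (4 of 5 found) and 37.3 against 16.2 in the mouse (5 of 5). The median cell had 1700.5 UMIs in the deep and 1198 in the superficial band of the opossum, with 1496 and 1141 for the mouse. Within glutamatergic subclasses alone, opossum Ldhb and mouse Eno1 and Ldha still met the criterion and opossum Aldoc did not (log2 0.27). With each cell thinned to 300 UMIs, mouse Ldha met it (log2 0.70), while opossum Ldhb (log2 0.17) and mouse Eno1 (log2 0.30) did not. With depth split at its middle, neither opossum member met it (log2 0.26 for Aldoc and 0.19 for Ldhb).

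In 10 bins of depth, the profiles were not all monotonic. Opossum Ldhb was 3.20 in the top bin, 5.35 in the fourth, 5.57 in the eighth and 3.72 in the deepest. Mouse Ldhb rose to 4.53 in the sixth bin and was lowest in the deepest, at 2.73, where Ldha stood at 2.75. Mouse Ldha had its lowest level, 1.80, in the fourth bin and its highest, 3.06, in the ninth. Opossum Aldoc went from 10.5 in the top bin to 16.6 in the eighth.

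**Figure D3:**
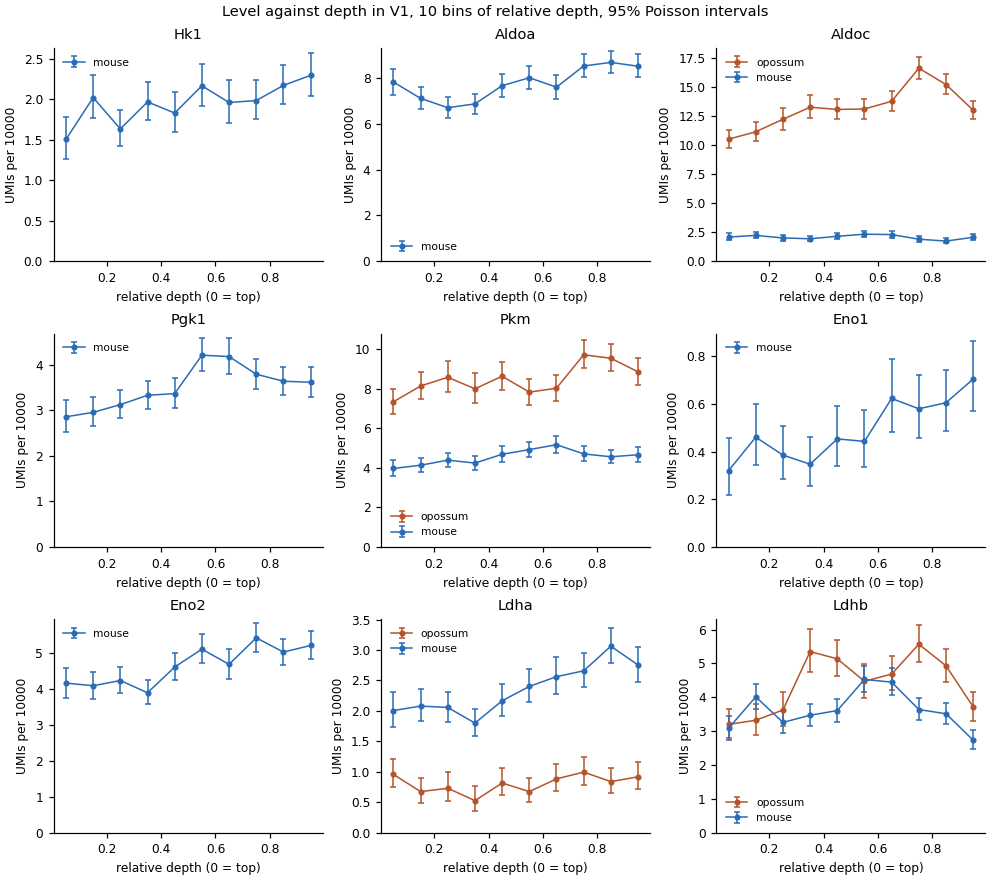
Level of each member (UMIs per 10000, from 0) in 10 equal bins of relative V1 depth, with 0 at the top, in the opossum (orange) and mouse (blue), with exact 95% Poisson intervals. Mouse Ldhb peaks at 4.53 in the sixth bin and is 2.73 in the deepest, whereas mouse Ldha reaches 3.06 in the ninth.

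The balance of isozymes is given as the share of 1 gene in the UMIs of a pair, with exact Clopper-Pearson intervals. It is a share of captured transcripts, not of protein. Ldhb made up 84.4% (83.2 to 85.6) of Ldha plus Ldhb UMIs in all opossum V1 cells and 60.4% (59.3 to 61.5) in mouse V1 cells. In Pvalb cells the share was higher in both sections. It was 89.9% (86.9 to 92.4) in opossum Pvalb cells and 82.5% (80.7 to 84.2) in glutamatergic cells, and the difference ranged from 5.0 to 9.83 points over the regions. In the mouse it was 74.3% (67.0 to 80.6) and 60.1% (58.6 to 61.5), and the difference ranged from 7.36 to 21.1 points. The opossum difference was 7.40 points, and 14.0 with first-round labels or 11.2 with matching class labels. This comparison of Pvalb cells was chosen after the values were seen. Sst cells lay between, at 87.5% (81.0 to 92.4) in the opossum and 66.0% (57.7 to 73.6) in the mouse. Their intervals overlapped those of Pvalb and of glutamatergic cells in both sections, so the higher share was not shown to be particular to Pvalb cells.

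Between astrocytes and glutamatergic cells the Ldhb share differed by 3.61 points in the opossum (SD over regions 6.09) and by 1.07 points in the mouse (SD 6.75), less than the spread between regions in both. The mouse share was lowest in L6CT neurons and oligodendrocytes, both at 53.9%, and 65.9% in L5PT neurons. With depth it was 54.2% (52.4 to 56.1) in the deep band and 63.6% (61.5 to 65.7) in the superficial band, lower by 6.29 to 12.7 points in each of the 4 regions, and among glutamatergic cells alone it was 53.9% and 63.7%. The opossum shares were 83.7% and 81.7%, and their difference went both ways over the regions (-4.46 to 4.32 points). Whether the depth differences of the 2 sections differ was not tested.

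**Figure D4:**
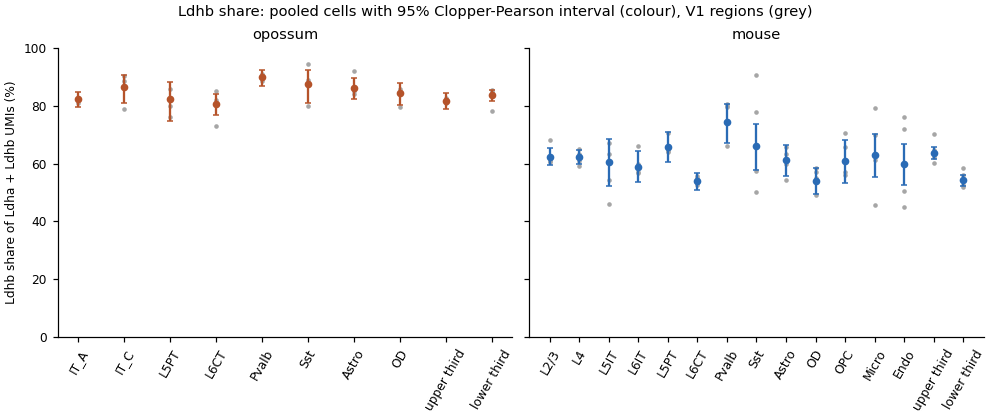
Share of Ldhb in the UMIs of Ldha plus Ldhb (percent, 0 to 100) in subclasses with at least 100 UMIs of the pair and in the superficial (upper) and deep (lower) band of V1. Coloured points are pooled cells with exact 95% Clopper-Pearson intervals and grey points single V1 regions. Pvalb cells are highest in both species, at 89.9% (opossum) and 74.3% (mouse).

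The aldolase and enolase pairs could be read in the mouse alone. Aldoc made up 27.1% (23.6 to 30.8) of Aldoa plus Aldoc UMIs in astrocytes and 19.9% (19.0 to 20.8) in glutamatergic cells, higher by 5.32 to 9.30 points in each region (SD 1.87). With first-round labels, which left 250 astrocytes, the difference was 12.7 points. The Aldoc share was also lower in the deep than in the superficial band, at 18.4% and 23.0%. Eno1 made up 10.2% (6.69 to 14.6) of Eno1 plus Eno2 UMIs in astrocytes and 9.16% (8.29 to 10.1) in glutamatergic cells, a difference of 0.999 points within the spread between regions (SD 2.28).

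Glutamatergic cells near an astrocyte were compared with those farther away, to show how levels near another cell type compare. Mouse Aldoc was 2.21 (1.83 to 2.64) in cells within 15 µm of the nearest astrocyte and 1.75 (1.63 to 1.86) in cells beyond 30 µm, a ratio of 1.26 that lay between 1.08 and 1.38 in the regions. Of the 4 astrocyte genes read beside it, Slc1a2 had a ratio of 1.13 there, Slc1a3 1.17, Gja1 1.09 and Aqp4 0.958, and each lay on both sides of 1 over the regions. Opossum Aldoc had a ratio of 1.01 (11.9 against 11.8), between 0.868 and 1.15 over the regions, while the astrocyte genes went different ways: Slc1a2 had 1.27 (1.12 to 1.41), the connexin gene Gja1 2.04 (1.49 to 3.10), Aqp4 1.66 (0.855 to 2.64) and Slc1a3 0.748 (0.664 to 0.815).

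Other genes of the pathway were taken from a list of 38, covering the other steps, glucose and lactate transport, pyruvate entry, glycogen and regulators. Of these 24 were found and 11 had 500 UMIs in the opossum, and 37 were found and 21 had 500 UMIs in the mouse. The shares of all genes that met the criterion, given above, stand again beside these counts. In astrocytes 3 of 11 were higher in the opossum (beside 9.81%): Slc2a1, a glucose transporter of glia and vessels (2.67 against 1.11, 2.41-fold), Pfkl, a phosphofructokinase subunit (1.31-fold), and Pygb, the brain glycogen phosphorylase (1.26-fold). Of 21 in mouse astrocytes, 1 was higher (beside 4.99%), Pygb (1.71 against 0.947, 1.81-fold), and 1 lower (beside 8.26%), Dlat, a subunit of pyruvate dehydrogenase (0.696-fold). Oligodendrocytes had 1 gene higher and 1 lower in the opossum (Pdhb, a further pyruvate dehydrogenase subunit, at 1.49-fold, and Pfkp, another phosphofructokinase subunit, at 0.547-fold; beside 14.0% and 21.4%) and 1 lower in the mouse (Slc16a7, a monocarboxylate transporter, at 0.610-fold; beside 10.4%).

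In opossum Pvalb cells 3 of the 11 were higher (beside 11.1%): Pygb (5.60 against 3.48, 1.61-fold), Pfkfb3, which makes the activator of phosphofructokinase (1.59-fold), and Pdhb (1.43-fold). In mouse Pvalb cells 1 of 21 was lower, Pfkl at 0.451-fold, a count no larger than the 10.2% over all genes gives. L5PT neurons had more Pygb in the opossum (1.69-fold, 1 of 11 beside 10.0%). For the mouse 2 of 21 were higher (beside 6.10%) and 1 lower (beside 10.4%), with more Pdhb (1.52-fold) and Pgam1, the phosphoglycerate mutase (5.71 against 4.33, 1.32-fold), and less Slc16a7 (0.612-fold). In the deep band of the mouse 4 of 21 were higher (beside 8.28%): Pfkp (1.38-fold), the neuronal glucose transporter gene Slc2a3 (1.32-fold), Gpi1 (1.30-fold) and Tpi1 (1.26-fold), the last 2 encoding isomerases of the upper pathway, and 1 was lower (beside 9.84%), Slc16a7 (0.705-fold). Gapdh, the dehydrogenase of the following step, was 8.38 in the deep and 7.90 in the superficial band (1.06-fold). In the opossum Dlat (1.57-fold) and Pdhb (1.39-fold) were higher there, 2 of 11 beside 14.8%, and Pfkfb3 was lower (0.558-fold), 1 of 11 beside 14.4%.

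Likeness to a member was measured as Pearson's r of log2 levels over the subclasses, among genes with at least 1000 UMIs (1546 others for the opossum and 2944 for the mouse). The points share 1 section each, rare subclasses carry counting noise, and the highest of many values is given, so these are descriptions. In the opossum, the gene most like Pkm was MDH1, cytosolic malate dehydrogenase (r = 0.92 over 14 subclasses), followed by COX17 (0.86). The most like Aldoc were NDUFB9 (0.88) and COX5B (0.84), both subunits of respiratory chain complexes, and the most like Ldhb were TBCB (0.81) and PRDX2 (0.80). In the mouse, Ldhb was most like Cplx1, which encodes a presynaptic complexin (r = 0.79 over 17 subclasses), and then Pkm (0.76). Ldhb and Pkm were the only pair of members found among the 3 genes most like each other. The closest to Aldoc was Clip3 (0.87), to Aldoa Uqcc2 (0.89), to Hk1 Psma5 (0.86), to Pgk1 Lgmn (0.82), to Eno2 Iqsec1 (0.82), to Pkm Spryd3 (0.82) and to Ldha Hpcal4 (0.76). Opossum Ldha and mouse Eno1 had too few UMIs.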

How the data were processed

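The deposited counts are UMIs per gene and segmented cell, not normalized. The authors made them with the vendor's workflow for Stereo-seq, on GRCm39 for the mouse and, for the opossum, on a modified reference in which gene ends had been extended. Deposited metadata give the V1 region, drawn by hand, the authors' cell filter, and class and subclass labels transferred from snRNA-seq in 3 rounds. The deposited positions hold 2 units per µm. Cells in a V1 region that passed that filter were used, of which 242 (opossum) and 1474 (mouse) had no subclass.

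UMIs were summed over cells and divided by all UMIs of those cells, with Python 3.11.15, numpy 2.4.6, scipy 1.17.1 and pandas 2.3.3. Depth was scaled from 0 to 1 within each V1 region, along the side of its smallest enclosing rectangle that best separated the upper IT subclass (IT_A or L2/3) from L6CT. The criterion (a log2 ratio of 0.32, 1 direction in every V1 region, at least 500 UMIs) is not a test. It was checked on simulated counts that held counting noise alone, without differences between regions or errors of label. The planted changes were larger than the limit, so that check does not cover differences near it. The members, the pathway and marker lists and the rules for naming genes were chosen with earlier results of these data known. The alternatives tried included cells with 200 genes and 300 UMIs or more, first-round labels, matching class labels, a denominator of 10575 symbols shared by the species, means over cells, 1.5-fold, a minimum of 100 UMIs, each V1 region left out and, for depth, glutamatergic cells, a split of depth at its middle and thinning to 300 UMIs. The Pvalb comparison of Ldhb shares was added after the data had been seen. The snRNA-seq data and immunolabeling were not used here.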

Additional observations from a re-analysis of the deposited data

Results flagged for a closer look

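Aldoc and Ldhb differed between the sections in the direction of their depth difference: every opossum V1 region was higher in the deep band and every mouse V1 region was lower. The log2 ratio of Aldoc was 0.38 in the opossum, with -0.14 in the mouse. That of Ldhb was 0.45 in the opossum, with -0.0666 in the mouse. The difference between the species was not tested, since each is 1 animal. The mouse ratio of Ldhb was 0.09 with depth split at its middle and 0.09 after thinning to 300 UMIs, so its sign depended on these choices, and the mouse ratio of Aldoc was -0.02 under both.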

How the results depend on the processing

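Counts of members that met the criterion were small, so single genes moved them. At 1.5-fold the counts were 0 for opossum astrocytes, oligodendrocytes, L5PT neurons and the deep band, 0 for mouse Pvalb and L5PT cells and 1 for the mouse deep band. Over all genes, 547, 637, 489 and 397 of 3342 were then higher or lower in these opossum groups. With the settings of the report the numbers were 1013, 1183, 911 and 978. In these mouse groups 512, 481 and 389 of 5508 were, against 789, 908 and 998. With first-round labels the counts of members were 1 in opossum L5PT neurons, 2 in mouse astrocytes, 1 in mouse Pvalb cells and 2 in mouse L5PT neurons. Over all genes they were 994 of 3342, and 945, 999 and 987 of 5508, against 911, 730, 789 and 908 with all labels. The Aldoc share difference was 12.7 points and the mouse near-to-far ratio of Aldoc was 1.54 with first-round labels. With matching class labels the counts of members were 1 in opossum oligodendrocytes, 5 in mouse Pvalb cells and 3 in mouse L5PT neurons. Over all genes they were 1202 of 3342, 826 of 5508 and 911 of 5508, against 1183, 789 and 908 with the settings of the report. With means over cells the counts of members were 0 in opossum oligodendrocytes, 2 in opossum Pvalb cells, 1 in the opossum deep band and 2 in mouse astrocytes. Over all genes they were 1071, 895 and 949 of 3342 and 802 of 5508, against 1183, 955, 978 and 730 with the settings of the report. The shared-symbol denominator gave 2 in mouse L5PT neurons, with 903 of 5508 over all genes (908 with the settings of the report). The mouse deep band had 3 with that denominator (Eno2 added), with means over cells (Hk1 added) and in glutamatergic cells alone (Aldoa added). Over all genes these settings gave 1012, 1032 and 1042 of 5508, against 998. In the opossum deep band, glutamatergic cells alone gave 1 and a split of depth at its middle gave 0. The counts over all genes were 1009 and 631 of 3342, against 978. Leaving out 1 V1 region gave 1 to 3 in opossum astrocytes, 0 to 2 in oligodendrocytes, 1 to 2 in Pvalb, 2 to 4 in L5PT and 2 to 3 in the deep band; in the mouse it gave 1, 0 to 1, 3 to 4, 0 to 4 and 2 to 4. Leaving out a region kept the Ldhb share difference of astrocytes between 1.43 and 5.34 points (opossum) and -1.04 and 3.93 (mouse), the Aldoc share difference between 5.67 and 7.71, the Eno1 one between 0.25 and 1.55, and the near-to-far ratio of Aldoc between 0.922 and 1.08 (opossum) and 1.22 and 1.29 (mouse). Of 578 single-gene ratios under the alternatives, 537 moved by no more than the SD over regions and 41 by more. No ratio that met the criterion with the settings of the report changed sign. These ratios include those with 1 V1 region left out. For them the SD came from the same regions, and the criterion already required 1 direction in each. They could thus hardly move by more or change sign, and the counts are not a measure of robustness. Opossum Ldha in oligodendrocytes, which did not meet it there (log2 0.16), met it as lower with first-round labels (log2 -0.52). Equal counts held different genes in these cases: thinning to 300 UMIs replaced Ldhb by Pkm (opossum) and Eno1 by Hk1 (mouse) in the deep band, first-round labels replaced higher Ldhb by lower Ldha in opossum oligodendrocytes, means over cells replaced higher Pkm and Ldhb by lower Hk1 and higher Eno1 in mouse Pvalb cells and Ldhb by Pgk1 in mouse L5PT neurons, and leaving out region 2 replaced Aldoc by Pkm in opossum oligodendrocytes. The cause of these changes was not tested. The opossum Aldoc and Eno1 shares were not run, since Aldoa, Eno1 and Eno2 were not found. No paired analysis was possible because each species had 1 sample. Depth limits Eno1 (622 UMIs) and opossum Ldha (564 UMIs) most.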
